A study of Mus musculus with 12 samples.

Results

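The Rab genes encode small guanosine triphosphatases (GTPases) that mark the membranes of the secretory and endocytic routes. Genes of the deposited table were taken as Rab genes when their symbol was Rab followed by a number, with or without a letter and a further digit, and when their mean signal over the 12 libraries was at least 1. Signal is the normalised read count of the deposited table, on a linear scale. Of 14460 genes in the table, 45 carried such a symbol and 40 reached that mean. The rule used no fold change or time course, though it was set with earlier results of these data known. The 5 below it were Rab36 (mean signal 0.924), Rab37 (0.870), Rab38 (0.843), Rab44 (0.650) and Rab4a (0.525), and the lowest 2 inside it were Rab3a (1.45) and Rab19 (2.14). Rab1 and Rab7l1 of the table are Rab1a and Rab29 in the GENCODE M21 annotation, and Rab7, Rab9 and Rab39 are the genes also written Rab7a, Rab9a and Rab39a.

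A Rab protein switches between a GTP-bound form, which sits in a membrane and recruits effectors such as tethers and motor adaptors, and a GDP-bound form. Exchange factors load GTP, GTPase-activating proteins of the TBC family trigger hydrolysis, and the GDP dissociation inhibitors take the lipid-modified protein out of the membrane and return it. Each compartment carries its own set, and in macrophages these sets steer the maturation of phagosomes, the secretion of cytokines and the release of granules.

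RNA was sequenced from GFP-positive cells sorted from hearts of Cx3cr1GFP/+ mice aged 2-3 months, in which GFP stands in for 1 copy of the chemokine receptor gene Cx3cr1 in every group. Hearts without surgery made up day 0, and hearts taken 3, 7 and 30 days after cryoinjury, a freezing injury used as a model of myocardial infarction, made up the other groups. Each of the 4 groups had 3 libraries, described as independent biological replicates. Day 0, day 7 and day 30 cells were sorted as Ly6clow/CX3CR1high and day 3 cells as Ly6chigh/CX3CR1low, so time after injury and sorting gate cannot be told apart in any comparison with day 3.

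Depth was 5828904 to 13199576 recovered reads per library, and 3 reads, the floor of detection used here, equalled a signal of 0.190 to 0.543 by library. The macrophage genes Csf1r, Emr1 (Adgre1), Cd68 and Itgam were read in all 12 libraries, and Ly6c2 was 619.8 to 1004 at day 3 against 1.32 to 26.7 elsewhere. Of the 10 macrophage and monocyte genes listed, 5 were higher and 4 lower at day 3 than at day 0, beside 22.1% of all genes in each direction. Csf1r was 1455 to 1849 at day 0 and 495 to 613 at day 3, and Cd68 362 to 409 and 911 to 1106. Fibroblast markers (10 of 10 found) summed to a signal of 75.9 to 256 at day 0, 1278 to 2059 at day 3, 1025 to 3433 at day 7 and 325 to 337 at day 30. Of these sums, Fn1 alone made up 988, 1735 and 1369 in the day 3 libraries. Against day 0, 5 of the 10 were higher and 2 lower at day 3, beside 22.1% of all genes in each direction. At day 7, 8 were higher than at day 0, and at day 30, 2 were, beside 11.4% and 3.45% of all genes. Cardiomyocyte markers (13 of 14) summed to 89.0 to 415 at day 0, 12.04 to 18.8 at day 3, 88.7 to 221 at day 7 and 26.7 to 27.1 at day 30. Of the 12 tested, 12 were lower at day 3 and 11 lower at day 30 than at day 0, beside 22.1% and 2.73% of all genes. Sums over the day 0 libraries ran from 16.1 to 199 for endothelial, 45.4 to 143 for mural, 28.1 to 192 for T and NK cell and 14.4 to 118 for erythroid markers. Day 0 replicate 1 held the lowest of each of these, and of the fibroblast and cardiomyocyte sums within day 0. Its mast cell sum was the highest there, 38.9 against 23.3 and 22.5. It differed from replicates 2 and 3 by a chi-square per gene of 66.8 and 64.2, and these from each other by 18.1. The second day 7 library stood apart: it held the highest or lowest of all 12 values in 20 of the 40 Rab genes and in 47.4% of all genes tested. The 3 day 30 libraries were closely alike, since pairs of them differed by a chi-square of 2.18 to 2.93 per gene and pairs of other groups by 6.20 to 89.2.

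Promoter windows of 250 bases before the RefSeq start (GRCm38.p6) were found for 38 of the 40 Rab genes, all but Rab18 and Rab2a, and were searched on both strands for 6 motifs. The GC box GGGCGG was in the windows of 30 of the 38 genes (78.9%) and of 35.4% of all genes in the table of promoters, and the E-box CACGTG in 5 (13.2%) against 6.86%. The PU.1 motif GAGGAAGT was found in 2, Rab2b and Rab32, or 5.26% against 2.79%. The interferon response motif (a pair of GAAA runs with any 2 bases between them) occurred in 1, Rab19 (2.63% against 3.46%), and the AP-1 motif TGANTCA in 1, Rab34 (2.63% against 7.82%). The nuclear factor kappa B motif (GGG, any 2 bases, TTTCC) occurred in 2, Rab28 and Rab9 (5.26% against 1.65%). A match is a run of letters and not a measured binding site. The sequences are 3 stretches around the motif of genes that were highest at day 3, and 2 whole windows, 1 from a gene that was highest and 1 from a gene that was lowest at day 3; capitals mark the motif matches, some of them as the reverse complement, and the strand is that of the gene. The Rab32, Rab20 and Rab19 stretches all lie inside the spans of their genes in GENCODE M21, which start further upstream than the RefSeq starts.
Rab32 (chr10:10558232-10558261, minus strand, PU.1 motif): tagccagggaaGAGGAAGTgccgggaccag
Rab20 (chr8:11478669-11478698, minus strand, E-box): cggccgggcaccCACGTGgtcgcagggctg
Rab19 (chr6:39381323-39381352, plus strand, interferon response motif): agtgggagggattgcccttgTTTCCCTTTC
Rab27a (chr9:73044560-73044809, plus strand, GC box): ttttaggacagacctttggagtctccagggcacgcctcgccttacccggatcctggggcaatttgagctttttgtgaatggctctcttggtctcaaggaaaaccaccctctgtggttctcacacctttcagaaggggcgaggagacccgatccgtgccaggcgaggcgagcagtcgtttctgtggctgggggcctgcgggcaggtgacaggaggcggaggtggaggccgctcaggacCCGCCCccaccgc
Rab39 (chr9:53706233-53706482, minus strand, GC boxes): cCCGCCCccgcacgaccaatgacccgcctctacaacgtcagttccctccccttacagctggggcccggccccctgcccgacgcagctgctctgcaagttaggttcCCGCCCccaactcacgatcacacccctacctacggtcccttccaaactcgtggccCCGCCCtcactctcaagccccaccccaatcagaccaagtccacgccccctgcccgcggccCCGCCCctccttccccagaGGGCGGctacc
The Rab39 window holds 5 GC boxes and the Rab27a window 1. The E-box counted for Rab27a lies before another RefSeq start of that gene.

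Signal was divided by the length of all annotated exons of a gene merged, in kilobases, so that genes could be compared. Rab7 had the highest mean over all libraries (209 per kb). Next came Rab1 (101), Rab8b (59.8), Rab5c (52.7), Rab10 (46.5) and Rab2a (46.1). By this measure the most abundant transcripts were those of the lysosomal route, the step from the endoplasmic reticulum (ER) to the Golgi, exocytosis and the early endosome. The lowest were Rab3a (0.650 per kb) and Rab23 (0.557). The order depends on the length used. Rab14, at a mean signal of 202, had 14.9 per kb over 13589 exonic bases, though its transcripts averaged 1659 bases. The signals of the 40 genes summed to 2466 to 2819 at day 0, 3348 to 3779 at day 3, 2659 to 2893 at day 7 and 2601 to 2630 at day 30, so the day 3 libraries lay above all others. These sums were not scaled to the total signal of all genes. That total was 918940 to 1205934 at day 0, 927471 to 1104267 at day 3, 941550 to 1260365 at day 7 and lower, 823829 to 836670, at day 30. The order of the groups therefore depends on the scaling, and shares of the total were not compared. Rab7 and Rab1 made up 16.4% to 18.04% and 10.4% to 12.4% of the sum of the 40 genes at day 0 and 20.99% to 22.5% and 17.03% to 18.9% at day 3.

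At day 3 against day 0, 20 of the 40 Rab genes (50.0%) passed the test (limma, Benjamini-Hochberg adjusted p under 0.05), 14 higher and 6 lower; of all 12879 genes tested, 44.2% passed, 22.1% in each direction. The 2 groups did not overlap for 25 of the 40, against 55.4% of all genes. At day 7 against day 0, 6 passed (4 higher, 2 lower; 21.6% of all genes, 11.4% higher and 10.2% lower), with no overlap for 10 against 32.2% of all genes, and at day 30 against day 0, 2 passed (1 higher, 1 lower; 6.18% of all genes, 3.45% higher and 2.73% lower), with no overlap for 18 against 40.8% of all genes. The day 30 count was 0 without any 1 library of day 30 or without day 0 replicate 2 or 3, 1 without day 0 replicate 1 or day 3 replicate 2 or 3, 4 without day 7 replicate 1 and 6 without day 7 replicate 2. The share of all genes moved as well, from 1.82% to 2.14% without 1 library of day 30 to 15.5% without day 7 replicate 2. Between day 3 and day 7, 23 passed (11 higher and 12 lower at day 7; 46.8% of all genes, 23.3% higher and 23.5% lower), with no overlap for 24 against 50.9%, and between day 7 and day 30, 17 (6 higher and 11 lower at day 30; 39.6% of all genes, 19.7% higher and 19.9% lower), with no overlap for 21 against 55.3%. That last count was 9 to 10 without 1 library of day 30 (27.0% to 28.2% of all genes) and 11 without day 7 replicate 2 (30.6%). Over the 4 groups 24 passed the F test, against 63.9% of all genes. The share of Rab genes past the test therefore lay near that of all genes in each comparison, and the median log2 fold change of the 40 was -0.01 at day 3 against day 0, beside -0.02 over all genes. Quantile normalisation changed the split at day 3 against day 0 to 9 higher and 10 lower, ending 6 calls. These were the rises of Rab8b (adjusted p = 0.466), Rab5c (0.132), Rab6a (0.768), Rab8a (0.140) and Rab24 (0.0621) and the fall of Rab23 (0.0765).

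**Figure D1:**
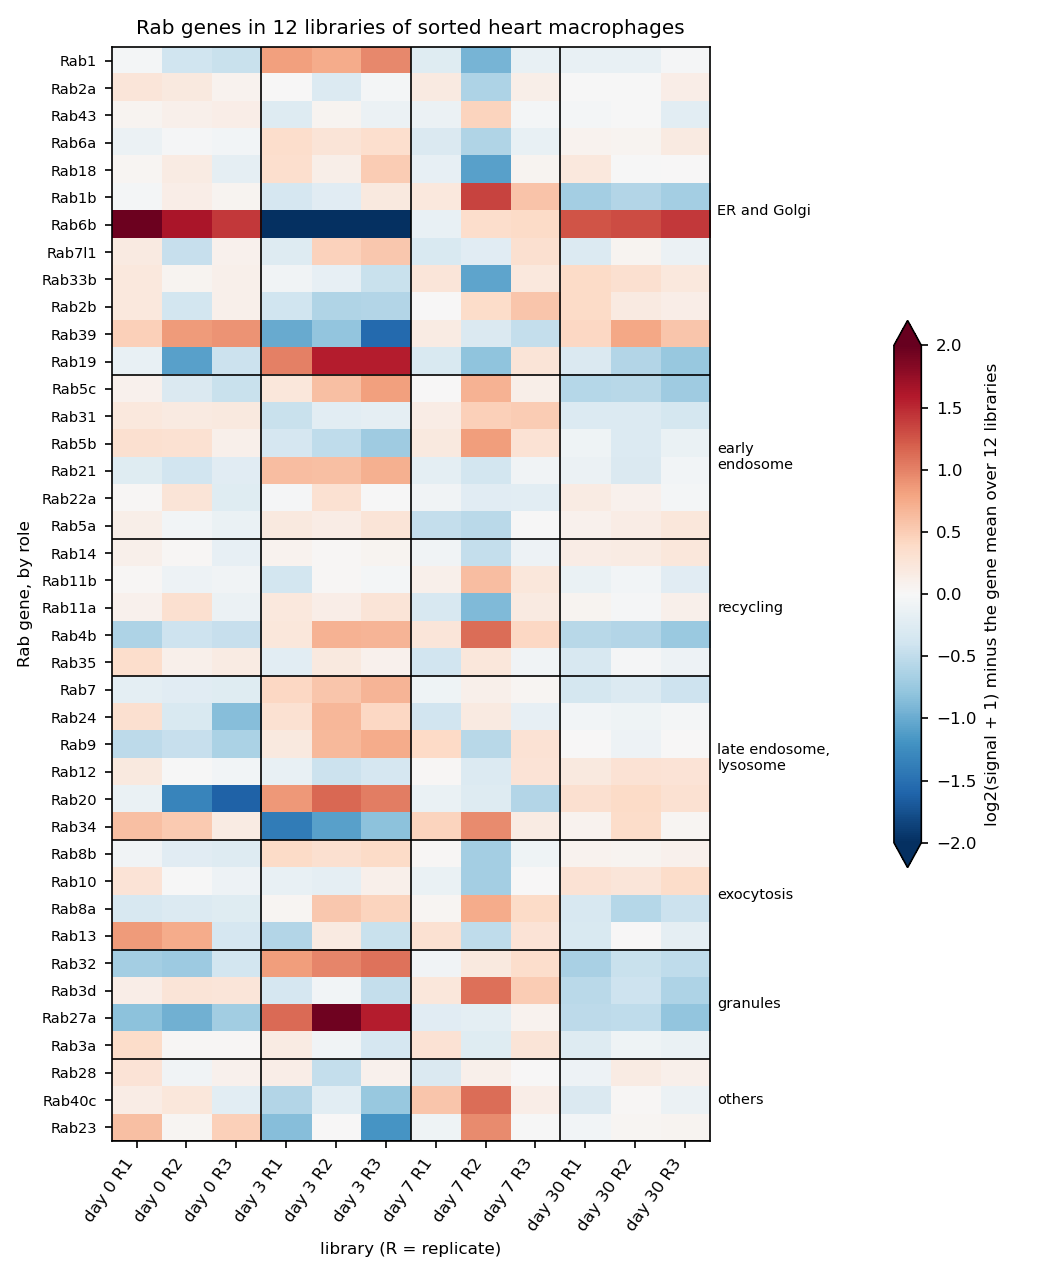
Level of each of the 40 Rab genes (rows, grouped by role) in each of the 12 libraries (columns), as log2(signal + 1) minus the mean of the gene over all libraries, with colours capped at 2 in either direction. Rab6b is deep blue in the 3 day 3 libraries, where its signal was 0.354 to 0.671, and Rab27a, Rab20, Rab32 and Rab19 are red there.

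**Figure D2:**
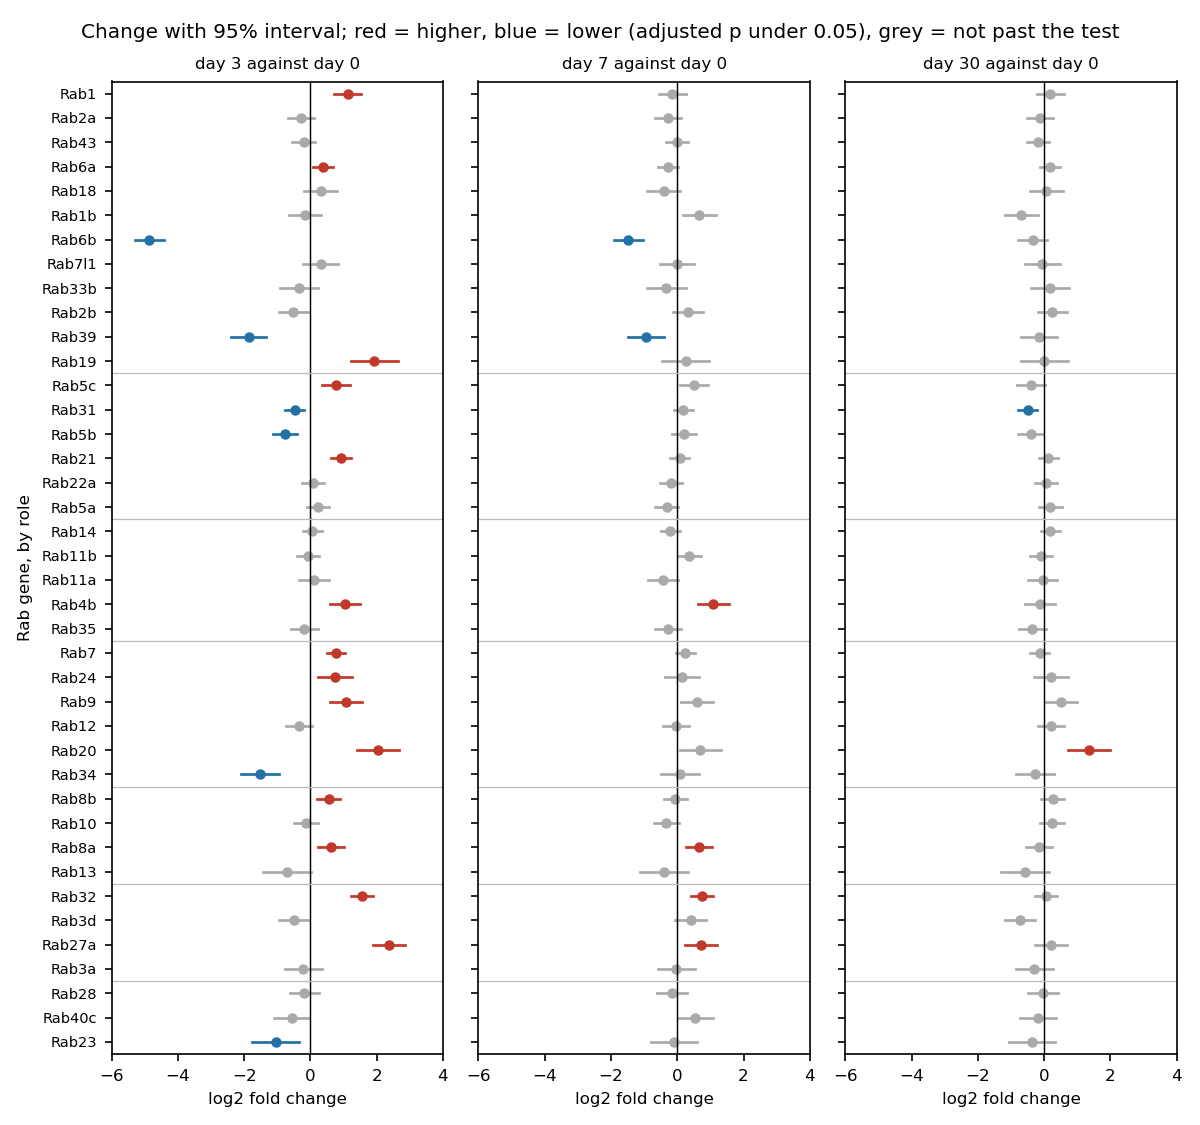
Log2 fold change against day 0 with its 95% interval (limma, n = 3 against 3) for each of the 40 Rab genes, grouped by role as in the heat map, for days 3, 7 and 30. Coloured points passed the test: 14 higher and 6 lower at day 3, 4 and 2 at day 7, and 1 and 1 at day 30.

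Of the 12 Rab genes of the ER and Golgi, 3 rose and 2 fell at day 3 against day 0. Beside this count and those of the roles below stand 22.1% of all genes in each direction. Roles were not tested as sets. Rab6b (ENSMUSG00000032549, chr9:103111787-103185276) encodes a Golgi Rab best known from neurons. It had a signal of 50.9, 40.5 and 34.8 in the day 0 libraries, 0.671, 0.354 and 0.397 at day 3, 11.1, 16.1 and 16.5 at day 7, and 30.96, 32.1 and 34.6 at day 30. The day 3 values rest on 7, 3 and 3 reads, and no library of another group came near them. Its log2 fold change was -4.86 ± 0.20 (SE, adjusted p = 1.3e-10) at day 3 and -1.47 ± 0.20 (adjusted p = 0.00015) at day 7 against day 0. On the linear scale, where no pseudocount narrows the difference, the pooled day 0 reads (964) over the pooled day 3 reads (13) gave a ratio of 86.7 (95% exact interval 50.5 to 163, counting error only). The gene rose by 3.38 ± 0.20 (log2, adjusted p = 1.6e-08) from day 3 to day 7 and by 1.13 ± 0.20 (adjusted p = 0.00079) from day 7 to day 30, when it was 0.34 ± 0.20 below day 0 on the log2 scale (adjusted p = 0.34). The rise from day 7 to day 30 missed the threshold when the averaged day 30 libraries counted as 1 sample (adjusted p = 0.0648). Because these are bulk libraries, fewer cells that express a gene and less RNA per cell cannot be told apart, here or below.

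Rab6a, the ubiquitous paralogue of Rab6b in the same Golgi route, did not share that fall. Its signal was 67.2, 72.4 and 70.3 at day 0, 93.8, 87.7 and 93.1 at day 3, 60.0, 47.9 and 66.0 at day 7, and 76.7, 76.2 and 83.5 at day 30. All day 3 libraries lay above all others, and the log2 fold change was 0.38 ± 0.14 at day 3 against day 0 (adjusted p = 0.036), -0.66 ± 0.14 at day 7 against day 3 (adjusted p = 0.0013) and 0.45 ± 0.14 at day 30 against day 7 (adjusted p = 0.020). The rise at day 3 was past the threshold by little: leaving out any 1 library of day 0, day 3 or day 30 put its adjusted p between 0.0545 and 0.0931. The change from day 7 to day 30 was -0.19 (adjusted p = 0.192) once trends on GC content and transcript length were removed from each library, a setting chosen after the data were seen. It also missed the threshold without day 30 replicate 1 (adjusted p = 0.0529) or replicate 3 (0.0857). The span of Rab6a overlaps that of Mrpl48 on the opposite strand.

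Rab39 (chr9:53684110-53706232), a Rab of phagosomes and autophagy listed here with the Golgi, followed the course of Rab6b at a lower level. Its signal was 8.58, 11.3 and 11.8 at day 0, 2.40, 2.95 and 1.32 at day 3, 6.66, 4.62 and 3.94 at day 7, and 8.11, 10.7 and 9.06 at day 30. The day 3 libraries were the lowest and did not overlap with any other group. It was lower by 1.87 ± 0.25 (log2, adjusted p = 2.5e-05) at day 3 and by 0.94 ± 0.25 (adjusted p = 0.017) at day 7 than at day 0, and its log2 fold change at day 30 against day 0 was -0.16 ± 0.25 (adjusted p = 0.75). The day 7 call was lost without day 0 replicate 2 (adjusted p = 0.0553) or replicate 3 (0.0610), and after removal of the GC and length trends (log2 fold change -0.59, adjusted p = 0.109).

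Rab1, which drives transport from the ER to the Golgi, had a signal of 349.6, 271 and 264 at day 0, 631, 599 and 696 at day 3, 302, 187 and 323 at day 7, and 322, 322 and 353 at day 30. Every day 3 library stood well above all others, and the other 3 groups overlapped. It rose by 1.13 ± 0.19 (log2, adjusted p = 0.00018) at day 3 and fell by 1.28 ± 0.19 (adjusted p = 7.1e-05) from day 3 to day 7. Its paralogue Rab1b had 34.8, 39.4 and 37.5 at day 0, 28.5, 30.6 and 41.6 at day 3, 41.9, 93.2 and 54.2 at day 7, and 22.1, 23.7 and 22.2 at day 30. The second day 7 library carried the highest value and the 3 day 30 libraries the lowest. The log2 fold change of Rab1b was 0.83 ± 0.23 (adjusted p = 0.0084) at day 7 against day 3 and -1.36 ± 0.23 (adjusted p = 0.00051) at day 30 against day 7.

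Rab19 (chr6:39381175-39390380), a little studied Golgi Rab, was near the floor outside day 3. Its signal was 1.32, 0.210 and 0.906 at day 0, 4.12, 6.61 and 6.62 at day 3, 1.06, 0.462 and 2.04 at day 7, and 1.09, 0.707 and 0.507 at day 30. The day 3 libraries held 43 to 56 reads of the gene and the others 2 to 14, with no overlap. The log2 fold change was 1.93 ± 0.33 (adjusted p = 0.00023) at day 3 against day 0 and -1.67 ± 0.33 (adjusted p = 0.00087) at day 7 against day 3. Among the others of this role, Rab2b, which acts in Golgi-to-ER retrieval, was higher at day 7 than at day 3 (0.84 ± 0.21, adjusted p = 0.0044), and Rab18, a Rab of lipid droplets and the ER, was lower (-0.72 ± 0.24, adjusted p = 0.021). Rab18 missed the threshold without day 7 replicate 2 (adjusted p = 0.0603), without day 3 replicate 3 (0.0797) and under quantile normalisation (0.0838). Rab2a (signal 62.8 to 115), Rab43 (64.2 to 106), Rab33b (7.40 to 21.8) and Rab7l1 (13.4 to 27.8) passed none of the 5 comparisons. The transcripts of Rab43 share 74.8% of their 31-base words with another gene, mostly Gm45140, so its level is uncertain.

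**Figure D3:**
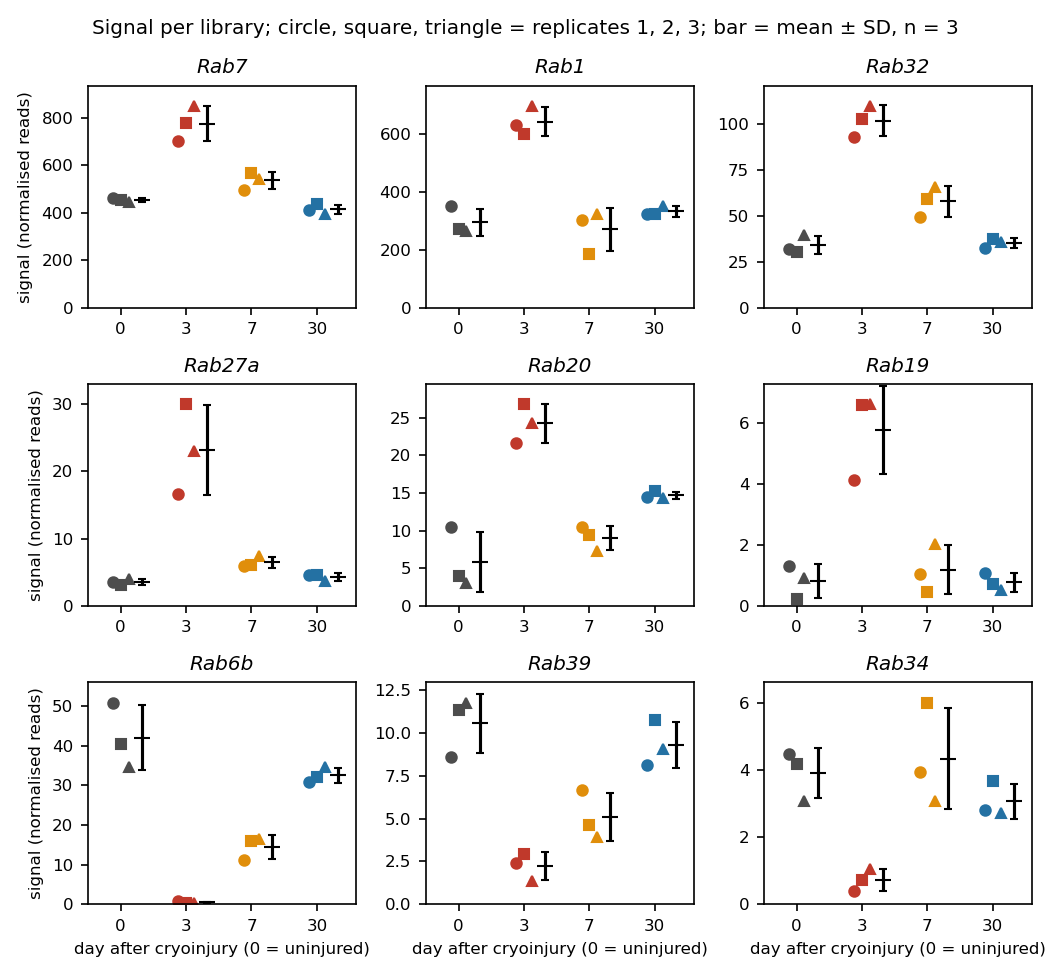
Signal (linear axis from 0) of 9 Rab genes in every library by day, with the mean ± SD of each group (n = 3). Rab7, Rab1, Rab32, Rab27a, Rab20 and Rab19 peak in the day 3 libraries, whereas Rab6b, Rab39 and Rab34 are lowest there.

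Of the 6 Rab genes of the early endosome, 2 rose and 2 fell at day 3 against day 0, and members of the Rab5 trio went opposite ways. Rab5 proteins control the fusion of incoming vesicles and early endosomes. Rab5c had a signal of 115, 89.2 and 79.9 at day 0, 127, 165 and 192 at day 3, 109.9, 178 and 119 at day 7, and 73.2, 73.6 and 66.2 at day 30. The day 3 libraries lay above day 0 and day 30 but overlapped with day 7. Its log2 fold change was 0.76 ± 0.20 (adjusted p = 0.0058) at day 3 against day 0 and -0.89 ± 0.20 (adjusted p = 0.0031) at day 30 against day 7, the latter lost with the averaged day 30 libraries as 1 sample (adjusted p = 0.0978). Rab5b had 96.0, 94.8 and 82.2 at day 0, 60.5, 53.6 and 46.5 at day 3, 87.4, 137 and 93.8 at day 7, and 71.98, 62.9 and 69.4 at day 30. It was lowest in the 3 day 3 libraries, below every library of every other group, with a log2 fold change of -0.76 ± 0.17 (adjusted p = 0.0021) at day 3 against day 0, 0.95 ± 0.17 (adjusted p = 0.00039) from day 3 to day 7 and -0.61 ± 0.17 (adjusted p = 0.012) from day 7 to day 30. The last of these was lost without day 30 replicate 2. Rab5a stayed between 22.1 and 39.4: 35.4, 31.5 and 29.9 at day 0, 37.6, 36.5 and 39.4 at day 3, 23.3, 22.1 and 32.6 at day 7, and 34.9, 36.5 and 38.6 at day 30. It was lower at day 7 than at day 3 (-0.54 ± 0.16, adjusted p = 0.012) and higher at day 30 than at day 7 (0.50 ± 0.16, adjusted p = 0.024). After removal of GC and length trends these differences were -0.25 (adjusted p = 0.158) and 0.03 (adjusted p = 0.885). The second was lost in 7 of 24 alternative analyses (adjusted p = 0.0536 to 0.885), among them the omission of day 7 replicate 1 or 2 or of any 1 day 30 library.

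Rab21, which handles the endocytosis of integrins, had 46.3, 41.9 and 46.7 at day 0, 84.3, 83.6 and 90.7 at day 3, 47.8, 42.5 and 52.4 at day 7, and 50.6, 44.5 and 53.0 at day 30. Only the day 3 libraries exceeded 53.0, and the gene was 0.92 ± 0.14 (log2, adjusted p = 5.7e-05) higher there than at day 0 and fell by 0.85 ± 0.14 (adjusted p = 0.00016) from day 3 to day 7. Rab31, which serves transport between the Golgi and endosomes, had 127, 123 and 126 at day 0, 80.0, 94.3 and 96.5 at day 3, 121, 153 and 156 at day 7, and 90.1, 90.6 and 85.6 at day 30. The values at day 3 and day 30 lay below those at day 0 and day 7 without overlap. The log2 fold change was -0.47 ± 0.14 (adjusted p = 0.011) at day 3 and -0.49 ± 0.14 (adjusted p = 0.045) at day 30 against day 0. The day 30 call was lost without any 1 library of day 0 or day 30 and without day 3 replicate 2 or 3, at adjusted p = 0.0585 to 0.181. With the averaged day 30 libraries counted as 1 sample, its adjusted p was 0.766. Rab22a, a further early endosomal Rab, passed no comparison (signal 34.0 to 50.1).

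Recycling endosomes had 5 Rab genes, of which only Rab4b, a Rab of fast recycling, passed at day 3 and at day 7 against day 0 (44.2% and 21.6% of all genes). Its signal was 13.5, 15.5 and 15.03 at day 0, 25.005, 34.7 and 34.4 at day 3, 25.3, 46.8 and 28.6 at day 7, and 14.0, 13.7 and 12.2 at day 30. Day 3 and day 7 libraries lay above all those of day 0 and day 30. The log2 fold change against day 0 was 1.03 ± 0.21 (adjusted p = 0.0011) at day 3, 1.09 ± 0.21 (adjusted p = 0.0022) at day 7 and -0.13 ± 0.21 (adjusted p = 0.77) at day 30. The call at day 7 held without the second day 7 library. Of the 31-base words of Rab4b transcripts, 62.6% are shared with other genes, mostly Gm21983, so reads of the 2 genes may not be separable. Rab11a, the Rab of the slow recycling compartment, had 70.9, 83.7 and 61.6 at day 0, 77.7, 73.4 and 80.2 at day 3, 53.6, 36.0 and 76.4 at day 7, and 69.6, 66.0 and 71.8 at day 30. The groups overlapped, and its single call, -0.54 ± 0.21 (log2, adjusted p = 0.047) at day 7 against day 3, was lost in 17 of 24 alternative analyses. These included the omission of any 1 library apart from day 7 replicate 3, with adjusted p = 0.0505 to 0.334 over the 17. Its paralogue Rab11b was 0.45 ± 0.16 (adjusted p = 0.030) higher at day 7 than at day 3 and 0.45 ± 0.16 lower (adjusted p = 0.032) at day 30 than at day 7, and without day 7 replicate 2 or after removal of GC and length trends both were lost (adjusted p = 0.0687 to 0.0951). The first was also lost without day 3 replicate 1 (adjusted p = 0.123) and the second without any 1 day 30 library (0.0596 to 0.112). Rab14, of the route between Golgi and endosomes, passed at day 30 against day 7 alone (0.40 ± 0.14, adjusted p = 0.033). This was lost without that library (adjusted p = 0.0751), without any 1 day 30 library (0.0774 to 0.108) and after removal of GC and length trends (log2 fold change 0.10, adjusted p = 0.468). Rab35 passed none (signal 15.6 to 26.5).

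Late endosomes, lysosomes, phagosomes and autophagosomes had 6 Rab genes, of which 4 rose and 1 fell at day 3 against day 0. Of all genes, 22.1% passed in each direction, and the role was not tested as a set. Rab7, which controls the fusion of late endosomes and phagosomes with lysosomes, had a signal of 464, 454 and 445 at day 0, 703, 778 and 850.5 at day 3, 498, 570.4 and 545 at day 7, and 413, 436 and 395 at day 30. The 4 groups fell in the order day 3, day 7, day 0 and day 30 without overlap, though day 7 and day 0 did not differ by the test (log2 fold change 0.24 ± 0.13, adjusted p = 0.21), nor did day 30 and day 0 (-0.13 ± 0.13, adjusted p = 0.59). Rab7 rose by 0.77 ± 0.13 (adjusted p = 0.00023) at day 3, fell by 0.53 ± 0.13 (adjusted p = 0.0045) from day 3 to day 7 and fell by 0.37 ± 0.13 (adjusted p = 0.036) from day 7 to day 30. The fall from day 3 to day 7 was lost under quantile normalisation (adjusted p = 0.0970), and the last fall in 9 of 24 alternative analyses (adjusted p = 0.0515 to 0.326), among them each omission of 1 day 30 library.

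Rab20 (ENSMUSG00000031504, chr8:11453518-11478710), a Rab of phagosome maturation known to respond to interferon gamma, had a signal of 10.4, 3.98 and 3.08 at day 0, 21.7, 26.8 and 24.4 at day 3, 10.4, 9.48 and 7.30 at day 7, and 14.5, 15.3 and 14.4 at day 30. Day 3 was above all other groups, day 30 came next, and day 7 overlapped with day 0, where the first library was the highest. It rose by 2.03 ± 0.30 (log2, adjusted p = 4.6e-05) at day 3 and was the 1 Rab gene higher at day 30 than at day 0 (1.35 ± 0.30, adjusted p = 0.013). That day 30 call was lost without day 0 replicate 2 (adjusted p = 0.0744) or 3 (0.0692), or without any 1 day 30 library (0.0549 to 0.0673). With the averaged day 30 libraries counted as 1 sample its adjusted p was 0.471. The span of Rab20 overlaps that of E230013L22Rik on the opposite strand.

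Rab34 (chr11:78188430-78192193), which positions lysosomes and acts in macropinocytosis, was the 1 gene of this role that fell at day 3. Its signal was 4.49, 4.19 and 3.08 at day 0, 0.383, 0.708 and 1.06 at day 3, 3.94, 6.01 and 3.07 at day 7, and 2.81, 3.67 and 2.73 at day 30. The day 3 libraries held 4, 6 and 8 reads and lay below all others. The log2 fold change was -1.53 ± 0.27 (adjusted p = 0.00030) at day 3 against day 0 and 1.62 ± 0.27 (adjusted p = 0.00022) at day 7 against day 3. Rab9, which returns mannose 6-phosphate receptors from late endosomes to the Golgi, rose at day 3 by 1.07 ± 0.23 (adjusted p = 0.0014), from a mean signal of 14.8 ± 0.938 to 32.4 ± 6.33 (SD, n = 3). Rab24, linked to autophagy, rose by 0.74 ± 0.24 (adjusted p = 0.021), but its day 0 and day 3 libraries overlapped and the call was lost without day 0 replicate 2 (adjusted p = 0.0556) or 3 (0.127) or day 3 replicate 2 (0.0864). Its span overlaps Prelid1 on the opposite strand. Rab12 passed no comparison (signal 11.5 to 19.5).

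Of the 4 Rab genes of exocytosis and the plasma membrane, both Rab8 genes rose at day 3 against day 0. Rab8 and Rab10 carry cargo from the Golgi and recycling endosomes to the cell surface. Rab8a had 38.1, 39.5 and 40.2 at day 0, 49.1, 69.9 and 65.9 at day 3, 49.2, 80.6 and 62.7 at day 7, and 38.1, 32.1 and 35.2 at day 30. Day 3 and day 7 lay above day 0 and day 30 without overlap, and the log2 fold change against day 0 was 0.62 ± 0.18 (adjusted p = 0.012) at day 3 and 0.67 ± 0.18 (adjusted p = 0.018) at day 7. The first was lost without day 3 replicate 2 (adjusted p = 0.0593) or 3 (0.0506), and the second without day 7 replicate 2 (0.0528). From day 7 to day 30 the gene fell by 0.82 ± 0.18 (adjusted p = 0.0029; 0.0972 with the averaged day 30 libraries as 1 sample). Rab8b rose from 244 ± 18.1 at day 0 to 358 ± 9.51 (SD, n = 3) at day 3, a log2 fold change of 0.55 ± 0.16 (adjusted p = 0.012). Rab10 had 195, 159 and 149.8 at day 0, 144, 141 and 171 at day 3, 146, 99.6 and 161 at day 7, and 197, 189 and 207 at day 30. Its day 30 libraries lay above those of day 7, with a log2 fold change of 0.57 ± 0.17 (adjusted p = 0.018) that was lost without day 7 replicate 2 and without day 30 replicate 1 or 3 (adjusted p = 0.0517 to 0.663 over the 5 alternatives that ended it). Rab13, a Rab of cell junctions, passed none, at a mean signal of 3.45.

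Secretory granules and lysosome-related organelles had 4 Rab genes. Rab27a and Rab32 were higher than at day 0 both at day 3 and at day 7, beside 22.1% and 11.4% of all genes. Both comparisons use the same day 0 libraries. Rab27a (ENSMUSG00000032202, chr9:73044854-73097629), which docks granules and exosome-bearing endosomes at the plasma membrane, had a signal of 3.56, 3.15 and 3.98 at day 0, 16.6, 30.0 and 23.03 at day 3, 5.90, 6.01 and 7.45 at day 7, and 4.60, 4.66 and 3.68 at day 30. Its day 3 values were above all others, and day 7 lay above day 0 and day 30 without overlap. The log2 fold change of 2.37 ± 0.23 (adjusted p = 7.3e-07) at day 3 against day 0 was the largest rise among the 40 genes in that comparison on the log2(signal + 1) scale. Over the alternative analyses this value ran from 1.69 to 2.72 for Rab27a and from 0.89 to 2.92 for Rab19, and Rab19 had the larger rise with a pseudocount of 0.1, by edgeR and by DESeq2. At day 7 the log2 fold change of Rab27a was 0.71 ± 0.23 (adjusted p = 0.039), a call lost in 12 of 24 alternative analyses. Among these were each omission of 1 day 0 library (adjusted p = 0.0603 to 0.110), of 1 day 30 library (0.0555 to 0.0589), of day 3 replicate 3 (0.0551) and of day 7 replicate 2 (0.0506) or 3 (0.0878). From day 3 to day 7 Rab27a fell by 1.67 ± 0.23 (adjusted p = 3.8e-05).

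Rab32 (ENSMUSG00000019832, chr10:10545002-10558265), which builds lysosome-related organelles and acts in host defence, had 31.8, 30.5 and 39.5 at day 0, 92.8, 103 and 109.6 at day 3, 49.1, 58.8 and 65.9 at day 7, and 32.4, 37.3 and 35.9 at day 30. Day 3 was highest, day 7 lay between, and day 0 and day 30 overlapped. Its log2 fold change was 1.56 ± 0.15 (adjusted p = 9.8e-07) at day 3 and 0.75 ± 0.15 (adjusted p = 0.0032) at day 7 against day 0, and both calls held in all 24 alternative analyses. It fell by 0.81 ± 0.15 (adjusted p = 0.00065) from day 3 to day 7 and by 0.69 ± 0.15 (adjusted p = 0.0030) from day 7 to day 30, the latter not with the averaged day 30 libraries as 1 sample (adjusted p = 0.108). Rab3d, a Rab of regulated exocytosis, had 13.9, 15.2 and 15.03 at day 0, 9.77, 12.2 and 8.74 at day 3, 14.99, 28.1 and 18.4 at day 7, and 8.34, 9.19 and 7.86 at day 30. Day 7 had the highest mean, though its lowest library lay within the range of day 0, and the gene rose by 0.90 ± 0.22 (adjusted p = 0.0034) from day 3 and fell by 1.14 ± 0.22 (adjusted p = 0.0011; 0.0632 with the averaged day 30 libraries) to day 30. Rab3a passed none, at a mean signal of 1.45.

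Granule genes can also come from granulocytes, so markers of these cells are given beside Rab27a and Rab32. Of 8 neutrophil markers 5 were in the table, and their summed signal was 81.6 to 159 at day 3, 5.41 to 47.3 at day 0, 9.84 to 22.8 at day 7 and 8.34 to 10.4 at day 30. Of the 4 tested, 2 were higher at day 3 than at day 0, beside 22.1% of all genes. In day 3 replicates 1, 2 and 3 the neutrophil sum was 159, 81.6 and 109, of which Mmp8 alone made up 66.7, 60.6 and 64.1. Rab27a was 16.6, 30.0 and 23.03 and Rab32 92.8, 103 and 109.6 in these libraries. With 3 libraries no relation between these values and the sum can be judged. Mast cell markers (5 of 6 found) summed to 22.5 to 38.9 at day 0 and 0.575 to 0.794 at day 3, where Cma1, Cpa3, Mcpt4 and Tpsb2 were at 0 in all 3 libraries. The part of other cells in the Rab27a and Rab32 levels was not tested, and neither was that of the fibroblast and cardiomyocyte markers in any Rab gene.

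The 3 remaining Rab genes have roles at the cilium or apart from these routes. Rab23, an inhibitor of Hedgehog signalling, had 7.00, 4.40 and 6.34 at day 0, 1.92, 4.25 and 1.32 at day 3, 3.94, 9.13 and 4.24 at day 7, and 4.06, 4.38 and 4.44 at day 30. Day 3 replicate 2 lay within the range of day 30 and just below the lowest day 0 library, and the call at day 3 against day 0 (-1.05 ± 0.33, adjusted p = 0.017) was lost without replicate 1 or 3 of day 0 or of day 3 (adjusted p = 0.0522 to 0.0895). Rab40c, which joins a ubiquitin ligase, had 10.03, 10.7 and 7.61 at day 0, 5.65, 7.67 and 4.90 at day 3, 13.6, 20.7 and 9.93 at day 7, and 7.17, 9.19 and 8.18 at day 30. Its mean was highest at day 7, though the lowest day 7 library lay within the range of day 0. It did not pass the test at day 7 against day 0. The log2 fold change was 1.12 ± 0.25 (adjusted p = 0.0023) at day 7 against day 3 and -0.73 ± 0.25 (adjusted p = 0.033) at day 30 against day 7. The second of these was lost in 9 of 24 alternative analyses (adjusted p = 0.0505 to 0.340), among them the omission of day 7 replicate 1 or 2 or of any 1 day 30 library. Rab28 passed none (signal 7.67 to 13.6).

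Close paralogues were compared as shares of their joint signal per kilobase of merged exon, so the level of a share depends on the exon lengths annotated. Rab6b made up 30.7% ± 4.74 (SD, n = 3) of the Rab6 pair at day 0, 0.380% ± 0.127 at day 3, 15.9% ± 3.96 at day 7 and 23.4% ± 0.379 at day 30, and no library of 1 group overlapped with another. Rab5c made up 60.6% ± 2.91 of the Rab5 trio at day 0, 78.3% at day 3, 66.9% at day 7 and 58.3% at day 30, while Rab5b went from 30.7% to 14.0% and back to 27.5% and 29.2%. Rab1b made up 17.7% of the Rab1 pair at day 0, 7.98% at day 3, 28.7% at day 7 and 10.3% at day 30. The day 7 value of Rab1b ran from 18.8% to 45.5%, the latter in replicate 2. The Rab2, Rab8 and Rab11 pairs moved less at day 3: Rab8b was 85.9% of its pair at day 0 and 85.2% at day 3, and Rab11a 60.7% and 63.7%. Shares were not tested.

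**Figure D4:**
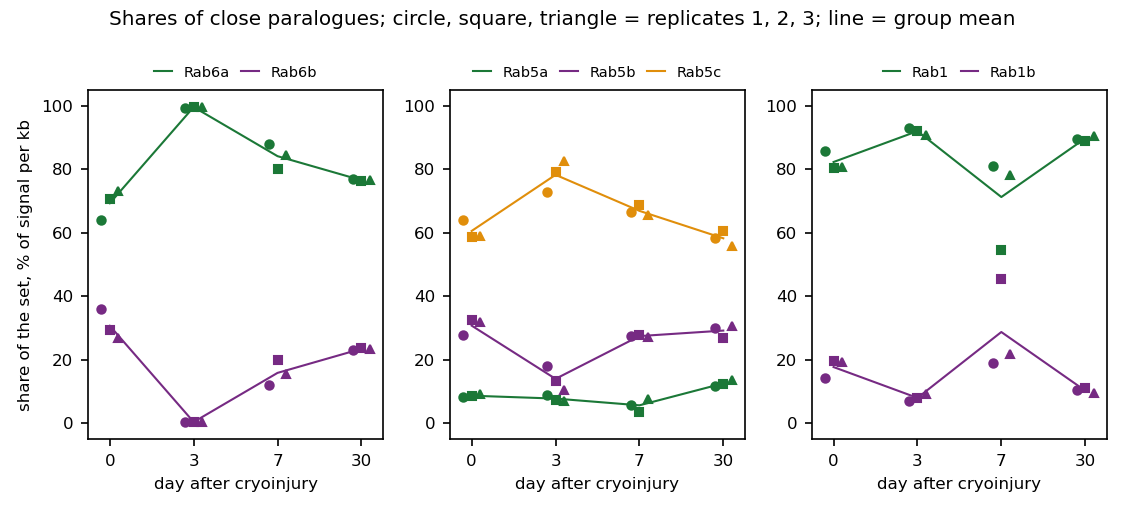
Share of each paralogue in the signal per kilobase of its set (%), by day, with 1 point for each library and a line through the group means. The Rab6b share falls from 30.7% at day 0 to 0.380% at day 3 and is 23.4% at day 30, and the Rab1b share of the second day 7 library, 45.5%, lies apart from the other 2.

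The values of the second day 7 library varied with the base composition of the transcripts, though not in every gene. It was the highest of all 12 libraries for Rab11b, Rab1b, Rab23, Rab34, Rab3d, Rab40c, Rab43, Rab4b, Rab5b and Rab8a, whose transcripts had a median GC content of 55.6%. It was the lowest for Rab1, Rab10, Rab11a, Rab14, Rab18, Rab2a, Rab33b, Rab5a, Rab6a and Rab8b, with a median of 44.3%. Across the 40 genes, which share the library and are not independent, the log2 difference of this library from the other 2 of day 7 had a Pearson r of 0.55 with GC content, beside 0.57 over all genes. The median size of that difference over the 40 genes was 0.52 (log2), and 0.29 after the GC and length trends were removed. Without these trends 12 in place of 17 Rab genes passed at day 30 against day 7, 2 higher and 10 lower, while the share of all genes went from 39.6% to 30.0%. At day 3 against day 0, 23 in place of 20 passed, and the share of all genes went from 44.2% to 49.7%. Without the library itself, 11 Rab genes (30.6% of all genes) passed at day 30 against day 7 and 24 (52.4% of all genes) at day 3 against day 0, so the counts of Rab genes and of all genes moved the same way.

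**Figure D5:**
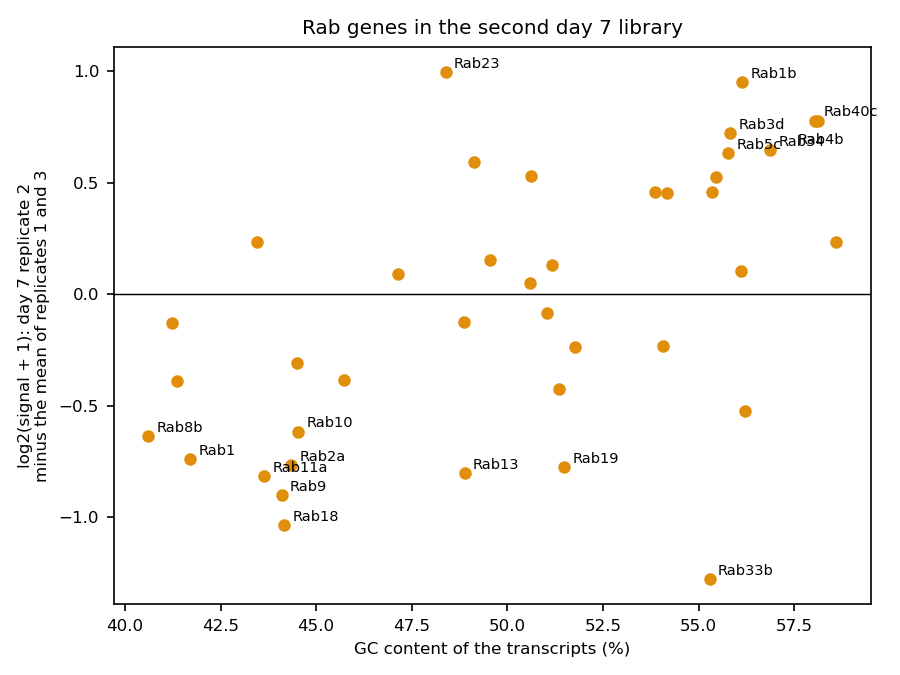
Difference of the second day 7 library from the mean of the other 2 day 7 libraries, in log2(signal + 1), against the GC content of the transcripts (%), with 1 point for each of the 40 Rab genes and names where the difference exceeds 0.6 in size. Rab1b, Rab4b and Rab40c, of high GC content, lie above 0 and Rab18 and Rab9, of low GC content, below it, but Rab33b, with a GC content of 55.3%, has the lowest difference, -1.28, and Rab3a (56.2%) lies at -0.52.

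The genes that operate the Rab cycle were followed in 5 lists (140 of 148 listed genes found), chosen with earlier results of these data known. The alternative analyses were followed for the Rab genes only, so the calls of these genes were not checked against the omission of a library. Of 9 tested proteins that prenylate Rabs or extract them from membranes, 2 rose and 3 fell at day 3 against day 0, with a median log2 fold change of -0.08. Over all genes 22.1% passed in each direction in that comparison and the median was -0.02, which holds for each list of the Rab cycle. Rabac1, the prenylated Rab acceptor, had 33.1, 46.4 and 31.1 at day 0 and 9.10, 11.5 and 13.5 at day 3, without overlap (-1.61 ± 0.22, adjusted p = 3.2e-05). Chml, a Rab escort protein, fell too (-1.37 ± 0.26, adjusted p = 0.00061), and Rabggtb, a subunit of the Rab prenylating enzyme, rose (1.01 ± 0.25, adjusted p = 0.0042). None of the 9 passed at day 7 or day 30 against day 0, where 21.6% and 6.18% of all genes passed.

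Of 39 exchange factors tested, 13 rose and 5 fell at day 3, 1 rose and 4 fell at day 7, and 2 rose at day 30, all against day 0. Of all genes, 22.1% passed in each direction at day 3, 11.4% were higher and 10.2% lower at day 7, and 3.45% were higher at day 30. The median log2 fold change of the list at day 3 was 0.29, beside -0.02 over all genes. Sbf2, an activator of Rab21 and Rab28, had 160.2, 163 and 147 at day 0 and 53.2, 25.7 and 27.3 at day 3, far below (-2.19 ± 0.21, adjusted p = 6.2e-07). The factor for Rab6 known as Ric1 (C030046E11Rik in the table) had 31.4, 40.3 and 32.6 at day 0 and 119, 104 and 125 at day 3, with no overlap (1.71 ± 0.15, adjusted p = 3.1e-07). Dennd2c fell at day 3 (-2.14 ± 0.31, adjusted p = 4.1e-05). Rabgef1, the Rab5 exchange factor also called Rabex-5, was 10.6 ± 0.852 at day 0 and 22.8 ± 1.29 (SD, n = 3) at day 30 (1.03 ± 0.19, adjusted p = 0.0054), and Rin3 rose at day 7 (1.09 ± 0.20, adjusted p = 0.0014).

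Of 34 TBC-family activating proteins tested, 5 rose and 11 fell at day 3, 3 rose and 5 fell at day 7, and 2 rose and 1 fell at day 30 against day 0. The shares of all genes were 22.1% in each direction at day 3, 11.4% higher and 10.2% lower at day 7, and 3.45% higher and 2.73% lower at day 30, and the median of the list at day 3 was -0.06 (log2). Tbc1d4 and Tbc1d1, which act on Rab8 and Rab10 in glucose transporter traffic, went opposite ways at day 3. Tbc1d4 had 29.7, 41.4 and 24.1 at day 0 and 3.93, 3.54 and 2.65 at day 3 (-2.88 ± 0.27, adjusted p = 4.6e-07), and Tbc1d1 28.0, 25.2 and 24.4 and then 79.5, 93.0 and 100.1 (1.77 ± 0.15, adjusted p = 1.5e-07). Neither gene overlapped between these days. Tbc1d16 fell as well (-2.14 ± 0.22, adjusted p = 1.2e-06), and at day 7 Evi5 was lower than at day 0 (-1.28 ± 0.27, adjusted p = 0.0038). Evi5 had 108, 92.9 and 83.3 at day 0 and 50.9, 20.1 and 53.6 at day 7, where replicate 2 was the lowest.

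Of 49 effectors tested, 14 rose and 6 fell at day 3, 9 rose and 6 fell at day 7, and 2 rose at day 30 against day 0. Beside these stand 22.1% of all genes in each direction at day 3, 11.4% higher and 10.2% lower at day 7, and 3.45% higher at day 30, and the median of the list at day 3 was 0.02 (log2). Rab11fip1, which links Rab11 to recycling vesicles, had 4.36, 7.02 and 4.71 at day 0, 33.1, 47.2 and 45.4 at day 3, 8.33, 11.0 and 10.1 at day 7 and 17.2, 17.4 and 14.1 at day 30. It was above day 0 in every later library, with a log2 fold change of 2.76 ± 0.21 (adjusted p = 6.0e-08) at day 3 and 1.45 ± 0.21 (adjusted p = 0.0010) at day 30. Rilpl1, which binds Rabs phosphorylated by the kinase LRRK2, rose at day 3 (2.27 ± 0.24, adjusted p = 1.8e-06), as did Rufy3 (2.18 ± 0.29, adjusted p = 1.8e-05). Rabepk was lower at day 7 (8.78, 6.13 and 17.7) than in any library of the other groups (33.2 to 54.6), and against day 0 the log2 difference was -1.97 ± 0.27 (adjusted p = 0.00014). Ppm1h, the phosphatase that reverses LRRK2 phosphorylation of Rabs, rose from 51.4 ± 0.677 at day 0 to 96.6 ± 4.51 (SD, n = 3) at day 3 (0.89 ± 0.13, adjusted p = 3.5e-05). It was the 1 of 3 genes in that list to pass.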

How the data were processed

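The authors deposited 1 table of 14460 genes with a linear normalised signal and its log2 value (signals under 1 set to 1) for each of 12 libraries. The submitters' processing notes name cutadapt 1.3, RSEM 1.2.20, edgeR 3.14.0 and genome build GRCm38; the role of each, and whether counting used strand, are not given in the sources used here. The deposited signal steps gave back whole reads within 0.02, so depth could be recovered (5828904 to 13199576 reads). The deposited log2 columns served to check the signal and as 1 of the alternative analyses.

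Tests used limma 3.58.1 (R 4.3.3) with a trend on log2(signal + 1), for the 12879 genes whose mean signal reached 1. The model had 4 group means and 8 residual degrees of freedom, with two-sided p-values adjusted by Benjamini-Hochberg over all genes in each comparison and a threshold of 0.05. Fold changes on this scale understate changes of low genes. Intervals from reads cover counting error only. Alternatives included edgeR 4.0.16 and DESeq2 1.42.0 on recovered reads, other scalings, filters and pseudocounts, a replicate block, and the omission of each library; the scripts were tested on simulated data. The members and lists were chosen with earlier results of these data known. Values in every library are given for up to 5 rises and 5 falls in each comparison, the 6 smallest F-test p-values, and Rab1, Rab5a, Rab7, Rab11a, Rab27a and Rab32. For the lists of Rab cycle genes, up to 3 genes each were eligible by size of change. Exonic lengths and positions come from GENCODE M21 (98.5% of IDs matched) and promoters from RefSeq (GRCm38.p6). Python 3.11.15 and matplotlib 3.10.9 drew the plots.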

Additional observations from a re-analysis of the deposited data

How the results depend on the processing

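Of 68 changes of single Rab genes past the test, 34 kept their direction and call in every one of 24 alternative analyses that gave a value. Over all pairs of a gene and an alternative, 1469 of 1626 stayed, 156 lost the call and 1 changed direction, Rab6a at day 30 against day 7, with a log2 fold change of -0.19 after removal of GC and length trends. The cause was not tested. The counts at day 30 were the least stable. Against day 0, the 2 calls became 1 by edgeR, 7 without day 0 replicate 1 and day 7 replicate 2 together, 0 with the averaged day 30 libraries as 1 sample (0.101% of all genes), and 0 to 6 when 1 library was left out. Against day 7, the 17 calls became 2 with the averaged day 30 libraries (6.40% of all genes) and 9 to 18 when 1 library was left out; averaging leaves fewer samples. With 1 library left out, the other counts ran from 17 to 24 (day 3 against day 0), 4 to 9 (day 7 with day 0), 20 to 23 (between days 3 and 7) and 22 to 28 (over the 4 groups). Replicate numbers did not pair the libraries: same-numbered libraries had a median correlation of 0.00490 (-0.0831 to 0.210). With the replicate block, 21, 7 and 3 Rab genes passed at days 3, 7 and 30 against day 0, 23 between days 3 and 7, 17 between days 7 and 30, and 26 over the 4 groups. With a mean signal of at least 5 required, Rab19, Rab23 and Rab34 had no value. Depth limits Rab6b and Rab34 at day 3, which rest on 13 and 18 reads in all.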

Other observations

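Of the 5 Rab genes below the mean signal of 1, Rab44, a large Rab with calcium-binding motifs, was read almost only at day 3. It had 18, 27 and 19 reads in the 3 day 3 libraries and 0 or 1 read in each of the other 9. Its signal was 1.72, 3.19 and 2.52 at day 3. Rab36 had 10, 15 and 21 reads at day 3 and 2, 22 and 10 at day 7, against 1 to 6 at day 0 and day 30. These genes were picked out after their values were seen and were not tested.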
